A study of Homo sapiens with 20 samples.

Results

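The epidermal growth factor (EGF) family ligands and their ERBB receptors were followed on RNA arrays of MII cells, the MCF10-T1k line of human mammary epithelium transformed with RAS. The members were 10 gene symbols, 6 ligands (AREG, EREG, HBEGF, TGFA, BTC, NRG1) and 4 receptors (EGFR, ERBB2, ERBB3, ERBB4), and every probe set annotated to one of them was taken. This gave 38 probe sets for 9 of the 10 genes, among 19775 genes in all. AREG had no probe set under its symbol in the annotation used and was not analysed here. The 5 groups of 4 biological replicates (A to D) were APC siRNA together with TAZ siRNA (siAPC/siTAZ), APC siRNA (siAPC), beta-catenin siRNA together with TAZ siRNA (sibcat/siTAZ), beta-catenin siRNA (sibcat) and control siRNA against GFP (siGFP). All groups carried the RAS transformation, received siRNA by lipofection and grew in medium with horse serum, insulin, hydrocortisone, cholera toxin and added EGF, so an ERBB ligand was supplied from outside in every group. No group received TAZ siRNA alone. The labels call the replicates biological and do not say whether they came from separate transfections, so p-values measure the spread between these samples.

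EGF family ligands are made as membrane-anchored precursors, which metalloproteases of the ADAM family cut to release the active domain. EGFR is bound by EGF, AREG and TGFA; HBEGF, BTC and EREG bind EGFR and also ERBB4; NRG1 binds ERBB3 and ERBB4. ERBB2 has no known ligand and acts as the preferred partner of the others, and ERBB3 has little kinase activity and signals through its partners to PI3K. In mammary epithelium this system supports growth of ducts and survival, and its output runs largely through RAS and ERK, which are already engaged by the RAS transgene of this line. Beta-catenin (gene CTNNB1) is kept low by a destruction complex that includes APC. The gene WWTR1 encodes TAZ, which activates transcription together with TEAD factors.

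Values are log2 signals, and each gene is represented by its brightest probe set on average across the 20 arrays; other probe sets are given where they differ. A difference was called at a limma adjusted p (Benjamini-Hochberg over 19775 genes) under 0.05. Array medians lay between 5.07 and 5.11. WWTR1 changed by -2.67 in siAPC/siTAZ against siAPC cells and by -2.21 in sibcat/siTAZ against sibcat cells, APC by -0.88 in siAPC against siGFP cells, and CTNNB1 by -1.33 in sibcat against siGFP cells. In sibcat/siTAZ cells CTNNB1 was a further 1.41 lower than in sibcat cells (log2 difference -1.41), and in siAPC/siTAZ cells APC was a further 0.46 lower than in siAPC cells (log2 difference -0.46). WWTR1 was also lower in the single depletions against siGFP cells, at -0.41 in siAPC and -0.43 in sibcat cells. CTNNB1 was called higher in siAPC/siTAZ (mean 12.26) than in siAPC cells (11.98), and APC higher in sibcat/siTAZ (8.41) than in sibcat cells (8.19). Each of these contrasts therefore carries a change in siRNA targets beside the one it depletes. CTNNB1 moved in opposite directions between the TAZ siRNA contrasts, so differences between the TAZ siRNA effects carry this too. The part of these changes in the results below was not tested. Of 4 reporter genes of TAZ and beta-catenin activity, CCN1, CCN2 and ANKRD1 rose in both single depletions against siGFP cells. Mean CCN2 signals were 7.76 in siGFP, 11.03 in siAPC and 10.56 in sibcat cells. With TAZ siRNA these genes fell, CCN2 to 4.27 in siAPC/siTAZ and 3.21 in sibcat/siTAZ cells. AXIN2 rose in siAPC (10.10) and fell in sibcat (4.29) against siGFP cells (4.79), and rose with TAZ siRNA in both backgrounds. All 3 measured basal epithelial markers of 5 listed lay above the array medians in every group, and of 5 epithelial markers only KRT19 lay below them, outside siGFP cells. Of the epithelial markers 2 rose and 3 fell in each single depletion against siGFP cells, 4 fell and none rose in each TAZ siRNA contrast (KRT8 at -1.47 and KRT18 at -1.35 in siAPC/siTAZ against siAPC cells), and all 5 fell in each combined depletion against siGFP cells; their part was not tested. Of the 5 leukocyte markers, PTPRC, TYROBP and LCP2 lay below the medians in every group. CD79A lay above them in every group, and CD3E in every group but siAPC. Of 4 endothelial markers CDH5 and TEK lay below the medians in every group, and VWF in every group but siGFP. PECAM1, the one endothelial marker above the medians in every group, fell in siAPC against siGFP cells (-1.31) and rose in siAPC/siTAZ against siAPC cells (0.50). Of the 5 fibroblast markers, COL1A1, COL3A1 and DCN rose in both TAZ siRNA contrasts (COL3A1 by 4.78 in siAPC/siTAZ against siAPC cells) while LUM stayed below the medians and PDGFRB was at -0.43, called lower, in siAPC/siTAZ against siAPC cells and at -0.13, not called, in sibcat/siTAZ against sibcat cells; the mean over this list lay between 8.37 and 8.47 in siAPC/siTAZ, 6.67 and 6.84 in siAPC, 7.94 and 8.10 in sibcat/siTAZ, 6.73 and 6.89 in sibcat and 7.18 and 7.24 in siGFP arrays, and its part in the results below was not tested. The 3' minus 5' signal of ACTB, a measure of RNA integrity, was 1.99 ± 0.084 in siAPC/siTAZ, 1.57 ± 0.026 in siAPC, 2.04 ± 0.059 in sibcat/siTAZ, 1.81 ± 0.054 in sibcat and 1.83 ± 0.063 in siGFP arrays (log2, SD, n = 4 each), lowest in siAPC arrays. For GAPDH it averaged 0.158 in siAPC/siTAZ, 0.125 in siAPC, 0.182 in sibcat/siTAZ, 0.122 in sibcat and 0.0925 in siGFP arrays, lowest in siGFP arrays; the part of either in the results was not tested.

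After APC depletion, 2 of the 9 measured genes rose (NRG1 and EGFR), 6 fell (EREG, HBEGF, TGFA, BTC, ERBB2 and ERBB3) and ERBB4 was not called. Of all genes tested, 40.0% were called in this comparison, 21.3% higher and 18.7% lower. The median log2 difference was -0.46 over the 9 genes and -0.0025 over all genes, and the median size was 0.61 against 0.135. After beta-catenin depletion 1 gene rose (NRG1), 6 fell (HBEGF, TGFA, BTC, ERBB2, ERBB3 and ERBB4) and EREG and EGFR were not called, where 37.1% of all genes were called, 21.4% higher and 15.7% lower. These comparisons share the siGFP arrays, so a trait of those arrays would move both.

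NRG1, the neuregulin that binds ERBB3 and ERBB4, had the largest rise of the family, and the rise was smaller or gone where TAZ siRNA was added. Its log2 signals were 5.50, 5.69, 5.85 and 5.86 on the siAPC/siTAZ arrays and 7.25, 7.41, 7.27 and 7.39 on the siAPC arrays. They were 5.12, 4.90, 5.55 and 4.96 on the sibcat/siTAZ arrays and 6.23, 6.08, 6.12 and 6.11 on the sibcat arrays. The siGFP arrays gave 5.49, 5.53, 5.41 and 5.38. The siAPC arrays were the highest and the sibcat arrays next, both clear of every other array, while siAPC/siTAZ overlapped siGFP and siGFP overlapped sibcat/siTAZ through replicate C of sibcat/siTAZ.

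NRG1 was 3.67-fold higher in siAPC than in siGFP cells (log2 difference 1.88 ± 0.11, SE, limma adjusted p = 1.72e-11) and 1.61-fold higher in sibcat than in siGFP cells (0.68 ± 0.11, adjusted p = 2.95e-05). With TAZ siRNA added it fell in both backgrounds, with a log2 difference of -1.61 ± 0.11 in siAPC/siTAZ against siAPC cells (adjusted p = 1.45e-10) and of -1.0 ± 0.11 in sibcat/siTAZ against sibcat cells (adjusted p = 2.88e-07). Against siGFP cells, siAPC/siTAZ cells stood at 0.27 ± 0.11 (adjusted p = 0.0423) and sibcat/siTAZ cells at -0.32 ± 0.11 (adjusted p = 0.0187). The first call was lost without siGFP replicate A, C or D or siAPC/siTAZ replicate B, C or D (lowest difference 0.23, adjusted p = 0.123), and the second without siGFP replicate B or sibcat/siTAZ replicate B or D (smallest difference -0.24, adjusted p = 0.0804). The siGFP and sibcat/siTAZ signals lie close to the array medians.

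The 6 NRG1 probe sets did not all show this. Across all 54613 probe sets tested, 4 NRG1 probe sets rose in siAPC against siGFP cells, with differences of 1.88 (206343_s_at), 1.86 (206237_s_at), 1.74 (208241_at) and 1.38 (208230_s_at). The other two, 208232_x_at and 208231_at, gave 0.14 and 0.08 and were not called, and 208231_at stayed between 2.39 and 2.94 on every array. In sibcat against siGFP cells 3 of the 6 rose, and 208230_s_at, at 0.22, was not called. All 4 fell when TAZ siRNA was added in either background, with 208230_s_at at -1.25 in siAPC/siTAZ against siAPC cells and -0.325 in sibcat/siTAZ against sibcat cells, and 208231_at was called at -0.245 in siAPC/siTAZ against siAPC cells. Against siGFP cells, 206237_s_at and 208241_at were called higher in siAPC/siTAZ (0.345 and 0.44) and lower in sibcat/siTAZ cells (-0.575 and -0.415). There 208230_s_at, 208231_at and 208232_x_at were not called in either. NRG1 is read from several start sites and spliced into many forms, and the files do not say which form each probe set reads.

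**Figure D1:**
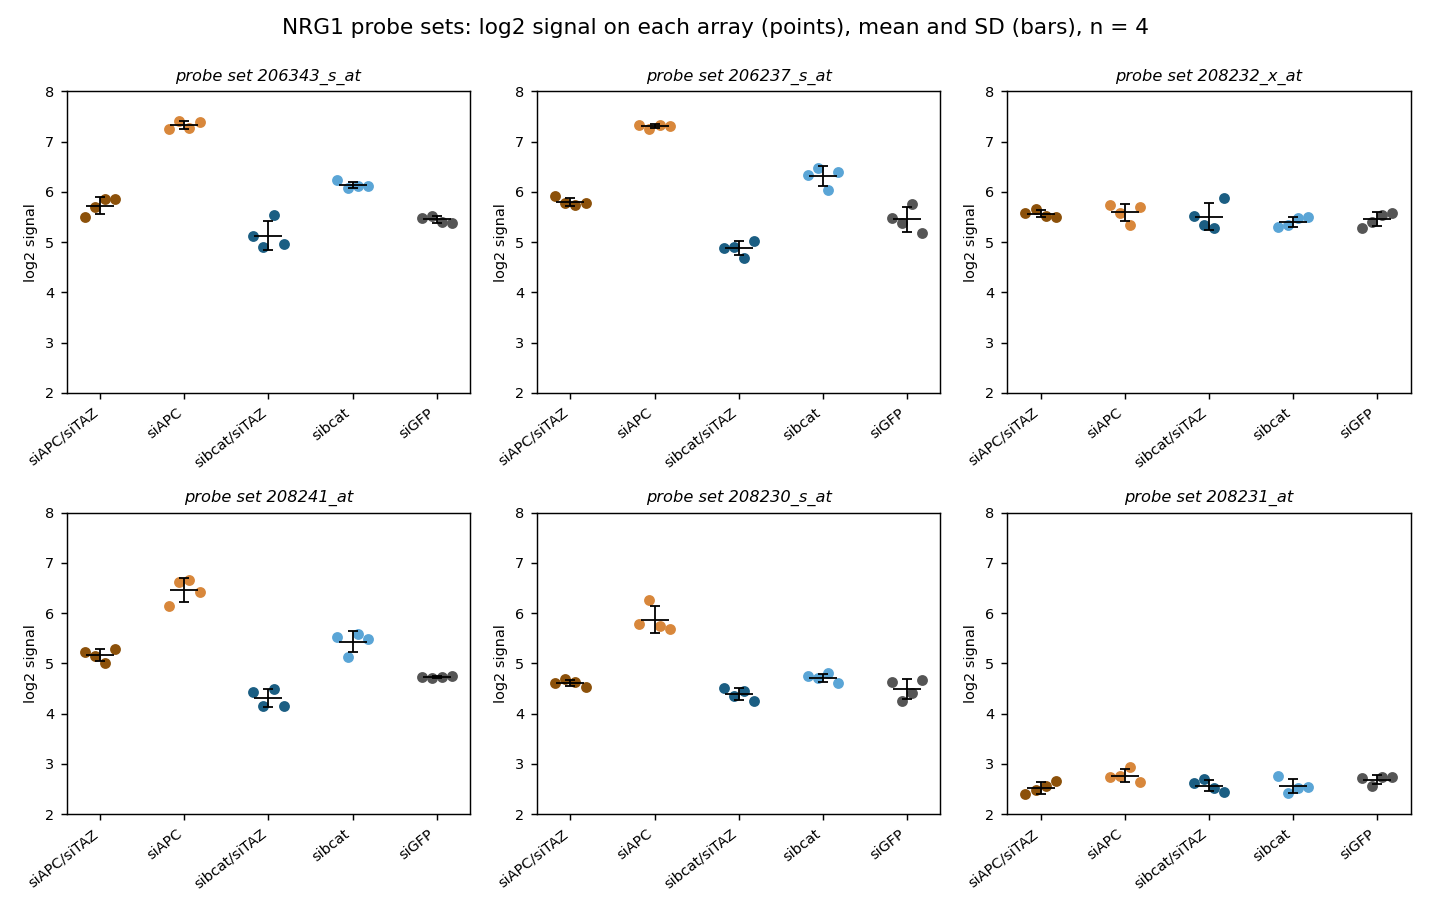
Log2 signal of the 6 NRG1 probe sets (y axis, the same range in each panel) in the 5 groups (x axis), with 1 point per array and bars for the mean and SD (n = 4). In 4 probe sets the siAPC arrays are the highest; 208232_x_at and 208231_at show no such difference.

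EREG (epiregulin), a ligand of EGFR and ERBB4, fell after APC depletion and was not called after beta-catenin depletion. The EREG probe set read log2 signals of 5.62, 5.78, 5.94 and 5.83 on the siAPC/siTAZ arrays, 6.02, 6.14, 6.48 and 6.14 on the siAPC arrays, and 7.43, 7.27, 7.13 and 7.18 on the siGFP arrays. They were 8.01, 7.97, 7.83 and 8.01 on the sibcat/siTAZ arrays and 7.53, 7.94, 7.40 and 7.29 on the sibcat arrays. Every array with APC siRNA lay below every siGFP array, and the sibcat arrays overlapped both siGFP and sibcat/siTAZ. EREG fell in siAPC against siGFP cells, with a log2 difference of -1.06 ± 0.12 (SE, limma adjusted p = 3.61e-07), and in siAPC/siTAZ against siGFP cells the difference was -1.46 ± 0.12, 2.75-fold lower (adjusted p = 2.27e-09). In sibcat against siGFP cells the difference was 0.29 ± 0.12 and was not called (adjusted p = 0.0651, 95% interval 0.040 to 0.54); it passed without sibcat replicate D (0.37, adjusted p = 0.021) and without siGFP replicate A (0.35, adjusted p = 0.04). In the direct comparison EREG was 2.54-fold lower in siAPC than in sibcat cells (-1.35 ± 0.12, adjusted p = 1.93e-08).

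Added TAZ siRNA moved EREG in opposite directions in the 2 backgrounds. The log2 difference was -0.40 ± 0.12 in siAPC/siTAZ against siAPC cells (adjusted p = 0.00858) and 0.42 ± 0.12 in sibcat/siTAZ against sibcat cells (adjusted p = 0.00981). The difference between these effects was -0.82 ± 0.17 (limma interaction, adjusted p = 0.000802). EREG was 4.48-fold lower in siAPC/siTAZ than in sibcat/siTAZ cells (-2.16 ± 0.12, adjusted p = 5.38e-12), the widest difference of any of the 9 genes in the 8 pairwise comparisons made. The second EREG probe set, 1569583_at, lay between 4.77 and 5.32 on every array, around the array medians. It was called at -0.235 in siAPC and -0.24 in siAPC/siTAZ against siGFP cells. Added TAZ siRNA gave -0.0025 in siAPC/siTAZ against siAPC cells and -0.030 in sibcat/siTAZ against sibcat cells, neither called. Its difference between these effects (0.028) was not called. Nor were its differences in sibcat/siTAZ against siGFP (-0.060), siAPC against sibcat (-0.205) and siAPC/siTAZ against sibcat/siTAZ cells (-0.18).

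EREG and BTC (betacellulin, also a ligand of EGFR and ERBB4) lie near each other on chromosome 4, in the order EPGN, EREG, AREG, BTC among protein-coding genes, so the 250 bases before the start of each are shown. They come from RefSeq (GRCh38.p14), EREG at chr4:74364895-74365144 on the plus strand and BTC at chr4:74794524-74794773 on the minus strand, 5′ to 3′ on the strand of the gene. Capitals mark matches on either strand to CATTCC (TEAD), CTTTGNT (TCF/LEF), TGANTCA (AP-1) or TGACGT (cAMP response element core). 
EREG: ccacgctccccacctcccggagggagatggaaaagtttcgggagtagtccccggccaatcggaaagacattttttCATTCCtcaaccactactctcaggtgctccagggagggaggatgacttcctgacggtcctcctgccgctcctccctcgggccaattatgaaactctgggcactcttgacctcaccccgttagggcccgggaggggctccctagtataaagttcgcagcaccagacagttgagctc
BTC: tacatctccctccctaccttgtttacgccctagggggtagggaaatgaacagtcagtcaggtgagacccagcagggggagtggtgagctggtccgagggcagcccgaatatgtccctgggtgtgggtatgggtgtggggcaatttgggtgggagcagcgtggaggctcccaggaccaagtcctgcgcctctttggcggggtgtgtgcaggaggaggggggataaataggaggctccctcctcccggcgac
EREG holds 1 TEAD match 175 bases before its start and BTC holds no match. Of 35116 RefSeq windows of the same kind, 11.9% hold CATTCC, 13.2% CTTTGNT, 6.57% TGANTCA and 7.10% TGACGT. RefSeq windows were given for 7 of the 9 measured genes (9 windows, NRG1 and ERBB3 without one), and HBEGF, TGFA and ERBB4 held no match, ERBB2 an AP-1 match 222 bases before its start.

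BTC fell after both single depletions and rose when TAZ siRNA was added to either. Log2 signals of BTC were 5.61, 5.73, 5.78 and 5.77 on the siAPC/siTAZ arrays, 5.25, 5.21, 5.27 and 5.19 on the siAPC arrays, and 5.93, 5.84, 5.70 and 5.88 on the siGFP arrays. They were 5.73, 5.70, 5.82 and 5.63 on the sibcat/siTAZ arrays and 5.08, 5.29, 4.92 and 5.04 on the sibcat arrays. Both single depletions lay below all other arrays, and the other 3 groups overlapped. BTC was lower in siAPC than in siGFP cells by a log2 difference of -0.61 ± 0.067 (SE, limma adjusted p = 3.32e-07) and in sibcat than in siGFP cells by -0.755 ± 0.067 (adjusted p = 2.14e-08). It rose by 0.49 ± 0.067 in siAPC/siTAZ against siAPC cells (adjusted p = 4.24e-06) and by 0.64 ± 0.067 in sibcat/siTAZ against sibcat cells (adjusted p = 2.70e-07). Against siGFP cells, the combined depletions gave -0.115 (adjusted p = 0.179, 95% interval -0.26 to 0.026) for siAPC/siTAZ and -0.12 (adjusted p = 0.176, 95% interval -0.26 to 0.024) for sibcat/siTAZ. These signals are near the array medians and the second probe set, 207326_at, was lower still; it was called at -0.28 in siAPC and -0.47 in sibcat against siGFP cells, and at 0.39 in sibcat/siTAZ against sibcat cells, while its 0.23 in siAPC/siTAZ against siAPC cells was not called.

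HBEGF (heparin-binding EGF-like growth factor) fell in all 4 depleted groups against siGFP cells. The log2 signal of HBEGF was 7.95, 7.69, 7.88 and 7.91 on the siAPC/siTAZ arrays and 8.16, 8.15, 8.02 and 8.20 on the siAPC arrays. They were 8.38, 8.34, 8.35 and 8.20 on the sibcat/siTAZ arrays, 8.21, 8.17, 8.23 and 8.24 on the sibcat arrays, and 8.62, 8.78, 8.92 and 8.77 on the siGFP arrays. Every siGFP array was above every other array and every siAPC/siTAZ array below every other. HBEGF was lower than in siGFP cells by a log2 difference of -0.64 ± 0.064 in siAPC (SE, limma adjusted p = 8.06e-08), -0.56 ± 0.064 in sibcat (adjusted p = 6.33e-07), -0.915 ± 0.064 in siAPC/siTAZ (adjusted p = 2.63e-10) and -0.455 ± 0.064 in sibcat/siTAZ cells (adjusted p = 5.98e-06). TAZ siRNA lowered it in siAPC/siTAZ against siAPC cells (-0.275 ± 0.064, adjusted p = 0.0014) and gave 0.105 in sibcat/siTAZ against sibcat cells, not called (adjusted p = 0.254, 95% interval -0.029 to 0.24). The difference between these effects was -0.38 ± 0.091 (adjusted p = 0.0031). A second probe set, 38037_at, gave the same calls in these comparisons, with -0.53 in siAPC and -0.40 in sibcat against siGFP cells, and the remaining 2 read at most 4.52 and had no call.

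TGFA (transforming growth factor alpha), an EGFR ligand, fell more after beta-catenin than after APC depletion. TGFA read log2 signals of 9.51, 9.47, 9.39 and 9.47 on the siAPC/siTAZ arrays and 9.31, 9.29, 9.38 and 9.40 on the siAPC arrays. They were 9.08, 9.02, 9.03 and 9.01 on the sibcat/siTAZ arrays, 8.98, 9.0, 8.99 and 9.01 on the sibcat arrays, and 9.82, 9.82, 9.69 and 9.77 on the siGFP arrays. The groups formed 3 levels without overlap, siGFP highest, those with APC siRNA next and those with beta-catenin siRNA lowest. The log2 difference from siGFP cells was -0.43 ± 0.039 in siAPC (SE, limma adjusted p = 2.09e-08) and -0.78 ± 0.039 in sibcat cells (adjusted p = 4.17e-12), and TGFA was 0.35 ± 0.039 higher in siAPC than in sibcat cells (adjusted p = 5.17e-07). Added TAZ siRNA gave 0.115 ± 0.039 in siAPC/siTAZ against siAPC cells (adjusted p = 0.0219), a call lost without siAPC replicate A, siAPC replicate B or siAPC/siTAZ replicate A (adjusted p = 0.0657, 0.0786 and 0.0705), and 0.040 in sibcat/siTAZ against sibcat cells, not called (adjusted p = 0.514). Of the other 2 TGFA probe sets, 211258_s_at was called in sibcat against siGFP cells (-0.33) and 205015_s_at, at -0.22, was not. In this order, they gave -0.19 and -0.10 in siAPC against siGFP cells, neither called. Both were called in siAPC/siTAZ against siGFP cells (-0.22 and -0.23). Neither was called in siAPC against sibcat (0.14 and 0.12) or siAPC/siTAZ against sibcat/siTAZ cells (0.0925 and -0.0675). The 3 levels thus rest on the leading probe set.

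**Figure D2:**
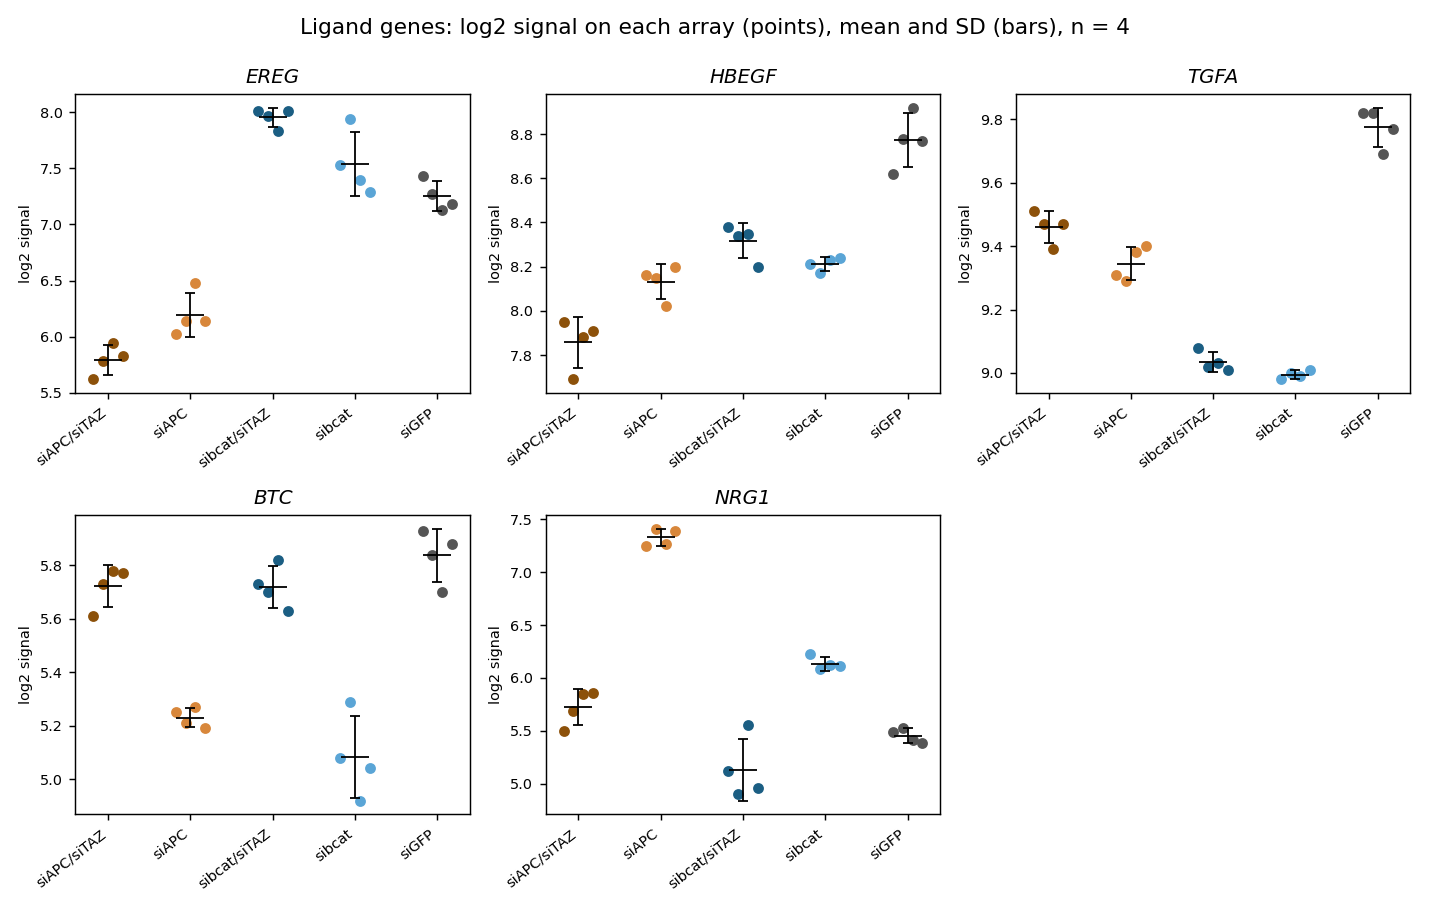
Log2 signal of the 5 measured ligand genes (y axis, a different range in each panel) in the 5 groups (x axis), with 1 point per array and bars for the mean and SD (n = 4). NRG1 is highest on the siAPC arrays, EREG lowest on the arrays with APC siRNA, and HBEGF and TGFA highest on the siGFP arrays.

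Among the receptors, ERBB3, the main neuregulin receptor, fell the most. The log2 signals of ERBB3 were 7.92, 7.99, 7.89 and 7.88 on the siAPC/siTAZ arrays, 7.75, 7.81, 7.76 and 7.75 on the siAPC arrays, and 8.57, 8.51, 8.54 and 8.49 on the siGFP arrays. They were 7.66, 7.54, 7.52 and 7.54 on the sibcat/siTAZ arrays and 7.91, 7.81, 7.83 and 7.87 on the sibcat arrays. Every siGFP array was above every other array and every sibcat/siTAZ array below every other. ERBB3 was 1.69-fold lower in siAPC than in siGFP cells (-0.76 ± 0.039, SE, limma adjusted p = 4.51e-12) and 1.59-fold lower in sibcat than in siGFP cells (-0.67 ± 0.039, adjusted p = 4.74e-11). NRG1 had risen in the same 2 comparisons, so this ligand and its receptor moved in opposite directions there. Added TAZ siRNA raised ERBB3 by 0.15 ± 0.039 in siAPC/siTAZ against siAPC cells (adjusted p = 0.00339) and changed it by -0.29 ± 0.039 in sibcat/siTAZ against sibcat cells (adjusted p = 7.28e-06). The difference between these effects was 0.44 ± 0.056 (adjusted p = 4.21e-06). A second probe set, 202454_s_at, was called at -0.555 in siAPC and -0.49 in sibcat against siGFP cells. With TAZ siRNA it gave 0.09 in siAPC/siTAZ against siAPC cells and -0.22 in sibcat/siTAZ against sibcat cells, neither called. Its difference between the TAZ siRNA effects was 0.31 and not called, and the other 3 had no call in any of these comparisons. The ERBB3 calls with TAZ siRNA thus rest on the leading probe set.

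ERBB2, the partner receptor without a ligand, fell in every depleted group. ERBB2 read log2 signals of 7.52, 7.58, 7.51 and 7.56 on the siAPC/siTAZ arrays and 7.54, 7.59, 7.57 and 7.58 on the siAPC arrays. They were 7.46, 7.34, 7.44 and 7.51 on the sibcat/siTAZ arrays, 7.55, 7.61, 7.69 and 7.85 on the sibcat arrays, and 8.0, 7.93, 8.12 and 8.06 on the siGFP arrays. All siGFP arrays were above all others, and the 4 depleted groups overlapped in a chain. The log2 difference from siGFP cells was -0.46 ± 0.056 in siAPC (SE, limma adjusted p = 1.30e-06), -0.35 ± 0.056 in sibcat (adjusted p = 3.76e-05), -0.485 ± 0.056 in siAPC/siTAZ (adjusted p = 3.93e-07) and -0.59 ± 0.056 in sibcat/siTAZ cells (adjusted p = 3.19e-08). TAZ siRNA lowered it in sibcat/siTAZ against sibcat cells (-0.24 ± 0.056, adjusted p = 0.00241) and gave -0.028 in siAPC/siTAZ against siAPC cells, not called (adjusted p = 0.744, 95% interval -0.15 to 0.090). The difference between these effects was 0.21 ± 0.080 (adjusted p = 0.0572), and it passed without sibcat replicate A (0.25, adjusted p = 0.02), sibcat replicate B or sibcat/siTAZ replicate D. The other 2 ERBB2 probe sets were not called in siAPC or sibcat against siGFP cells; 234354_x_at was called at -0.51 in siAPC/siTAZ and -0.49 in sibcat/siTAZ against siGFP cells, and 210930_s_at at -0.35 in siAPC/siTAZ against siGFP cells. In siAPC/siTAZ against siAPC cells, where the leading probe set was not called, 234354_x_at was called lower (-0.31, adjusted p = 0.0369), and its difference between the TAZ siRNA effects was -0.070. In sibcat/siTAZ against sibcat cells only the leading probe set was called, with 234354_x_at at -0.2375 and 210930_s_at at -0.1325.

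EGFR, the receptor of EGF and TGFA, moved little. Log2 signals of EGFR were 10.18, 10.19, 10.10 and 10.11 on the siAPC/siTAZ arrays and 10.51, 10.50, 10.42 and 10.44 on the siAPC arrays. They were 10.02, 10.03, 10.00 and 10.03 on the sibcat/siTAZ arrays, 10.35, 10.34, 10.27 and 10.26 on the sibcat arrays, and 10.21, 10.26, 10.25 and 10.23 on the siGFP arrays. The siAPC arrays were above all others and the sibcat/siTAZ arrays below all others, within less than 1 log2 unit. EGFR was 1.17-fold higher in siAPC than in siGFP cells (0.23 ± 0.036, SE, limma adjusted p = 2.27e-05) and its 0.068 in sibcat against siGFP cells was not called (adjusted p = 0.158, 95% interval -0.0071 to 0.14). With TAZ siRNA it fell in both backgrounds, with differences of -0.32 ± 0.036 in siAPC/siTAZ against siAPC cells (adjusted p = 2.45e-07) and of -0.285 ± 0.036 in sibcat/siTAZ against sibcat cells (adjusted p = 2.44e-06), and the difference between the effects was -0.038 (adjusted p = 0.669, 95% interval -0.14 to 0.068). Against siGFP cells EGFR was at -0.092 ± 0.036 in siAPC/siTAZ (adjusted p = 0.0391), a call lost without siGFP replicate B, C or D or siAPC/siTAZ replicate C or D (smallest difference -0.078, adjusted p = 0.116), and at -0.22 ± 0.036 in sibcat/siTAZ cells (adjusted p = 3.62e-05). In sibcat/siTAZ against siGFP cells the dimmer probe set 1565483_at was called in the opposite direction, at 0.44 (adjusted p = 0.0103). In siAPC/siTAZ against siGFP cells the leading probe set was not called in the limma fit over all probe sets (adjusted p = 0.0846). Nor were 201984_s_at (-0.0475) and 201983_s_at (-0.0225), while the dimmer 211607_x_at (-0.50), 210984_x_at (-0.36) and 211550_at (-0.27) were called lower.

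EGFR had 9 probe sets, and 201984_s_at and 201983_s_at, the other two with a mean over 8, rose by 0.38 and 0.26 in siAPC against siGFP cells and fell in both TAZ siRNA contrasts. In sibcat against siGFP cells, where the leading probe set was not called, 201984_s_at was called higher (0.24, limma adjusted p = 0.00159). There 201983_s_at gave 0.15 and was not called (adjusted p = 0.0938). Of the 6 probe sets with a mean under 6, 5 were not called in siAPC against siGFP cells and 211550_at was called at -0.325. One of the 2 EGFR windows held 3 matches to the motifs above. It lies before a second, downstream transcript start (chr7:55109589-55109838, GRCh38.p14, plus strand, 5′ to 3′), and is shown as the window with the most matches. Capitals mark the AP-1 matches 232 and 136 bases and the TEAD match 114 bases before that start.
EGFR: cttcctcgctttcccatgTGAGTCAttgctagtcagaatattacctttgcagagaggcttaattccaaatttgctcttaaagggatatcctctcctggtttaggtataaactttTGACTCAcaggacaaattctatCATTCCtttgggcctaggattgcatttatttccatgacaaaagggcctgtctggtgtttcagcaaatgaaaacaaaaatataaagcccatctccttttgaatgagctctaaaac
The window at the other EGFR start (chr7:55018767-55019016) held no match. Which start the EGFR probe sets read is not given, and the part of these matches in the results was not tested.

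ERBB4, the second neuregulin receptor, was near background in all groups. The highest of its 4 probe sets, 206794_at, had log2 signals between 3.53 and 3.77 on the siAPC/siTAZ, 3.43 and 3.84 on the siAPC, 3.39 and 3.65 on the sibcat/siTAZ, 3.35 and 3.62 on the sibcat and 3.63 and 4.10 on the siGFP arrays, and all neighbouring groups overlapped. The arrays give no detection call, and these values lie well below the array medians. Its -0.27 ± 0.10 in sibcat against siGFP cells (SE, limma adjusted p = 0.0446) was the only ERBB4 call in the 9 comparisons; it was lost without siGFP replicate C (-0.17, adjusted p = 0.19) or D, or without sibcat replicate A, B or C, and in the fit over all 54613 probe sets (adjusted p = 0.0596). Its -0.21 in siAPC against siGFP cells (adjusted p = 0.117) passed without siAPC replicate A (-0.30, adjusted p = 0.023), and its -0.24 in sibcat/siTAZ against siGFP cells (adjusted p = 0.0615) passed without siGFP replicate A or B.

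**Figure D3:**
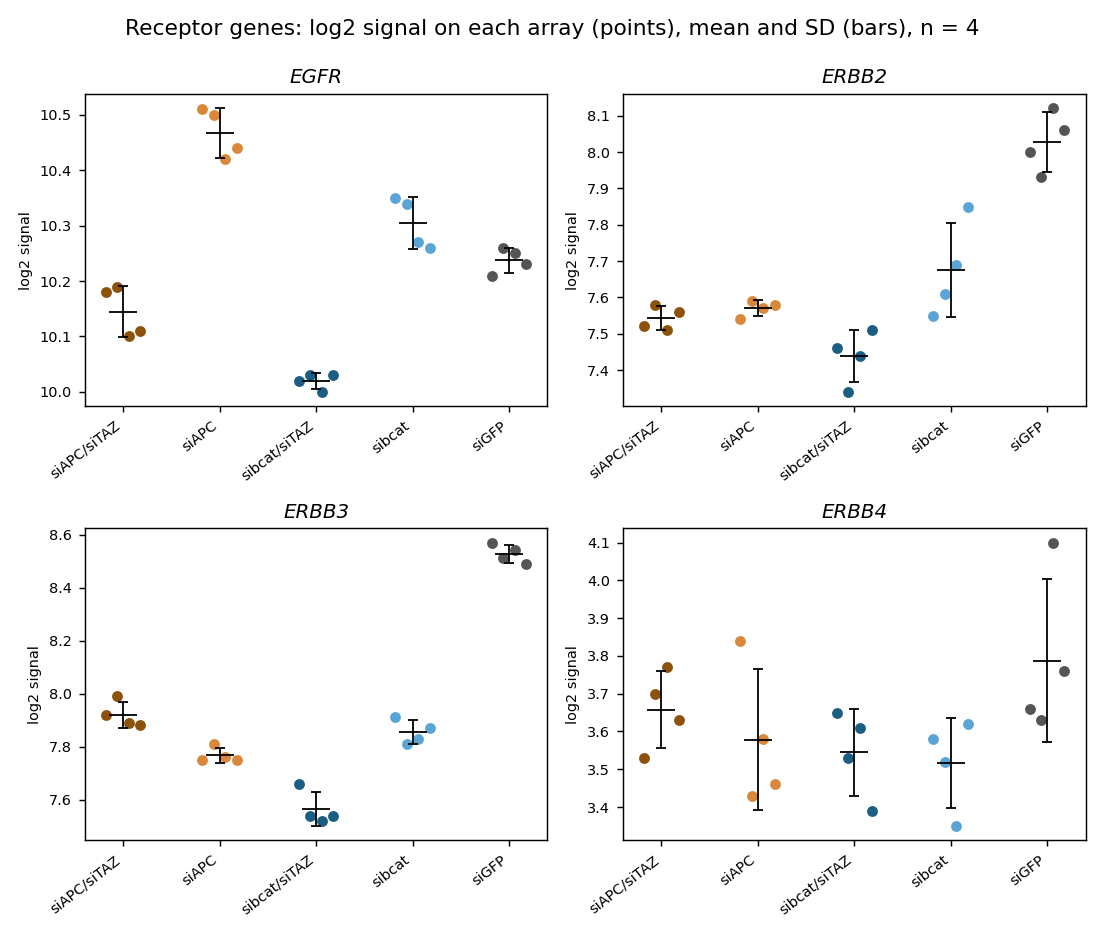
Log2 signal of the 4 receptor genes (y axis, a different range in each panel) in the 5 groups (x axis), with 1 point per array and bars for the mean and SD (n = 4). The siGFP arrays are the highest for ERBB2 and ERBB3, and the siAPC arrays for EGFR.

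Set side by side, the 38 probe sets gave 7 rises and 11 falls in siAPC against siGFP cells and 4 rises and 9 falls in sibcat against siGFP cells, where 30.2% and 26.0% of all 54613 probe sets were called. Every rise in both comparisons was of NRG1 or EGFR, so these are counts of probe sets and not of genes. The shares of all probe sets in this paragraph are for either direction. With TAZ siRNA added, 3 probe sets rose and 15 fell in siAPC/siTAZ against siAPC cells and 3 rose and 10 fell in sibcat/siTAZ against sibcat cells, with 35.5% and 22.6% called among all probe sets. Against siGFP cells, 3 probe sets rose and 15 fell in siAPC/siTAZ and 2 rose and 14 fell in sibcat/siTAZ cells (38.7% and 35.0% of all probe sets called). In siAPC against sibcat cells 6 rose and 1 fell (24.9% called), and in siAPC/siTAZ against sibcat/siTAZ cells 6 rose and 6 fell (36.2% called). The TAZ siRNA effect differed between backgrounds for 6 of the 38, 1 higher and 5 lower (18.7% called).

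**Figure D4:**
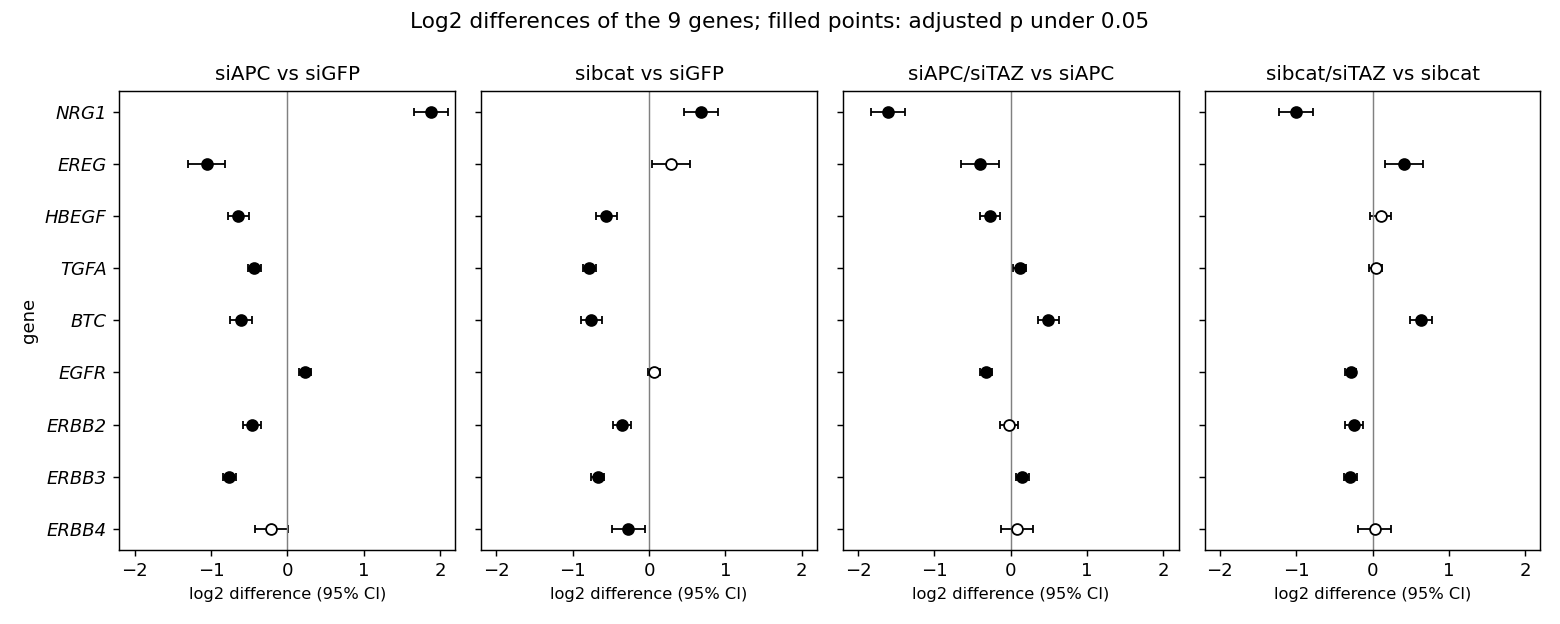
Log2 differences (x axis, points) with 95% intervals of the 9 measured genes (y axis) in 4 comparisons (panels); filled points had a limma adjusted p under 0.05. NRG1 lies right of 0 in both single depletions and left of 0 in both TAZ siRNA contrasts, and BTC the other way round.

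Over the gene-level fit, TAZ siRNA raised 3 of the 9 genes (TGFA, BTC, ERBB3) and lowered 4 (EREG, HBEGF, NRG1, EGFR) in siAPC/siTAZ against siAPC cells, where 43.5% of all genes were called, 20.7% higher and 22.8% lower. In sibcat/siTAZ against sibcat cells it raised 2 (EREG, BTC) and lowered 4 (NRG1, EGFR, ERBB2, ERBB3), where 31.7% of all genes were called, 18.0% higher and 13.7% lower. The TAZ siRNA effect differed between the backgrounds for 4 of 9 genes (EREG, HBEGF, NRG1 lower and ERBB3 higher in the APC background), against 27.7% of all genes, 12.2% higher and 15.5% lower. For NRG1 the difference was -0.60 ± 0.15 (SE, limma adjusted p = 0.0045), and it depended on the probe set: 208230_s_at gave -0.93 and was called, while 206237_s_at at -0.08 and 208241_at at -0.17 were not. With the mean of all probe sets of a gene, the calls for HBEGF (-0.15, adjusted p = 0.118) and ERBB3 (0.18, adjusted p = 0.103) were lost.

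**Figure D5:**
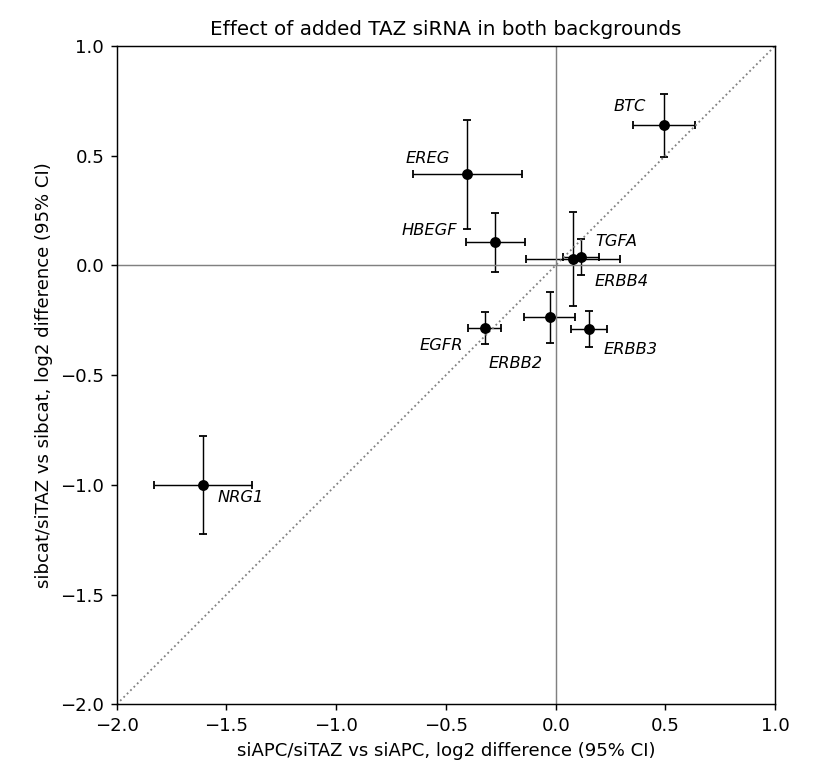
Log2 difference with 95% intervals of the 9 genes for TAZ siRNA added to APC depletion (x axis) and to beta-catenin depletion (y axis); the dotted line marks equal effects. NRG1 and EGFR lie below 0 on both axes, BTC above 0 on both, and EREG on opposite sides of 0.

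Compared directly, 3 of the 9 genes were higher in siAPC than in sibcat cells (NRG1 by 1.20 ± 0.11, TGFA by 0.35 and EGFR by 0.16) and EREG was lower, where 33.8% of all genes were called, 16.3% higher and 17.5% lower. For ERBB3 the difference was -0.088 (limma adjusted p = 0.102, 95% interval -0.17 to -0.0047) and for HBEGF -0.080 (adjusted p = 0.399, 95% interval -0.21 to 0.054). BTC was at 0.15 (adjusted p = 0.107), and passed without sibcat replicate B (0.22, adjusted p = 0.009). Between the combined depletions, siAPC/siTAZ cells had more TGFA, NRG1, EGFR and ERBB3 and less EREG and HBEGF than sibcat/siTAZ cells, where 45.0% of all genes were called, 20.8% higher and 24.2% lower; NRG1 differed by 0.59 ± 0.11 (adjusted p = 9.36e-05). The direction for EGFR turned with the probe set: the leading one was at 0.125, while the dimmer 1565483_at (-0.40), 211551_at (-0.315) and 211607_x_at (-0.25) were called lower, as was the mean of all 9 (-0.128, adjusted p = 0.0052). Against siGFP cells, both combined depletions had 1 gene higher and 6 lower, where 47.2% of all genes were called for siAPC/siTAZ (23.0% higher, 24.3% lower) and 44.9% for sibcat/siTAZ (25.4% higher, 19.5% lower); the higher gene was NRG1 in siAPC/siTAZ and EREG in sibcat/siTAZ cells (0.70 ± 0.12, adjusted p = 4.96e-05).

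The genes that act around these receptors were read from lists of known regulators. The counts below stand against the shares of all genes called, which were 40.0% (21.3% higher, 18.7% lower) in siAPC and 37.1% (21.4% higher, 15.7% lower) in sibcat against siGFP cells, 43.5% (20.7% higher, 22.8% lower) in siAPC/siTAZ against siAPC cells and 31.7% (18.0% higher, 13.7% lower) in sibcat/siTAZ against sibcat cells. The genes listed for control of ERBB receptors need not all act in the same direction, so their counts do not measure restraint. Of these 10, 3 rose and 7 fell in siAPC against siGFP cells (list median -0.44, all genes -0.0025). In sibcat against siGFP cells 1 rose and 4 fell (list median -0.069, all genes 0). ERRFI1 (MIG6), which binds and inhibits the EGFR kinase domain, was lower in both, by log2 differences of -0.94 ± 0.036 in siAPC and -1.02 ± 0.036 in sibcat cells (SE, limma adjusted p = 3.73e-14 and 1.95e-14). The transmembrane protein LRIG3 was at -1.37 and the ubiquitin ligase CBLB, which marks active receptors for degradation, at -0.56 in siAPC against siGFP cells, and the related ligase CBLC at -1.02 in sibcat against siGFP cells. With TAZ siRNA, 6 of the 10 rose and 3 fell in siAPC/siTAZ against siAPC cells (CBLB at 1.47, LRIG3 at 1.79 and LRIG1, a transmembrane inhibitor of ERBB receptors, at 1.10). In sibcat/siTAZ against sibcat cells 6 rose and 2 fell (UBASH3B at -1.22, ERRFI1 at -0.68 and LRIG1 at 0.77).

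Of 10 genes for ligand shedding, 3 rose and 3 fell in siAPC against siGFP cells (list median -0.023), where 40.0% of all genes were called. The metalloprotease ADAM19 rose by 2.04 ± 0.053 (SE, limma adjusted p = 1.20e-16), while TIMP3, an inhibitor of ADAM17, was at -1.93 ± 0.045 (adjusted p = 2.57e-17) and the metalloprotease ADAM12 at -0.995 ± 0.054 (adjusted p = 9.38e-12). In sibcat against siGFP cells 1 rose and 4 fell, with ADAM19 at 1.15, TIMP3 at -0.62 and ADAM12 at -0.36. With TAZ siRNA 5 rose and 1 fell in siAPC/siTAZ against siAPC cells, with ADAM19 at 0.95, TIMP3 at 0.94 and ADAM8 at -0.955. In sibcat/siTAZ against sibcat cells 3 rose and 2 fell, with ADAM19 at 0.26, RHBDF1 at -0.285 and RHBDF2 at 0.22; the last pair encode inactive rhomboids, and RHBDF2 is needed for ADAM17 to reach the cell surface.

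Of the 4 measured genes among 5 other family ligands (EPGN had no probe set under its symbol), none rose and 2 fell in each single depletion against siGFP cells. NRG4, a ligand of ERBB4, was called in both, at -0.52 in siAPC and -0.345 in sibcat cells, with group means between 2.90 and 3.42, below the array medians and not shown to be above background. The second call was NRG2 in siAPC cells (-0.33) and EGF in sibcat cells (-0.32). EGF was also the only called gene of this list with TAZ siRNA, higher in sibcat/siTAZ (mean 3.27) than in sibcat cells (mean 2.75); like NRG4 it lay far below the array medians in every group and was not shown to be above background. Of 11 measured proximal adaptors, 4 rose and 4 fell in siAPC against siGFP cells, among them the phospholipase PLCG1 at 0.65 and the exchange factor SOS2 at -0.50, and 5 rose and 3 fell in sibcat against siGFP cells, with SOS2 at -0.57 (list medians 0.058 and 0.038). With TAZ siRNA 7 rose and 3 fell in siAPC/siTAZ against siAPC cells (list median 0.22, 43.5% of all genes called) and 4 rose and 2 fell in sibcat/siTAZ against sibcat cells (list median 0.12, 31.7% called); the PI3K subunit PIK3R1 rose in both, by 1.06 and 1.235.

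Transcripts induced by ERK, the kinase downstream of these receptors, were read last. Of 10 such genes, 3 rose and 4 fell in siAPC against siGFP cells (CCND1, the gene of cyclin D1, at 0.57, EPHA4 at 0.77, SPRY2 at -0.42), and none rose and 6 fell in sibcat against siGFP cells, where 21.4% of all genes were called higher and 15.7% lower (PHLDA1 at -0.52, CCND1 at -0.42, ETV5 at -0.36). With TAZ siRNA 7 rose and 2 fell in siAPC/siTAZ against siAPC cells, with the ERK phosphatase DUSP6 at 1.0 ± 0.054 and CCND1 at -0.90 ± 0.049 (SE, limma adjusted p = 6.64e-12 and 6.82e-12). In sibcat/siTAZ against sibcat cells 3 rose and 3 fell, with CCND1 at -1.97 ± 0.049 (adjusted p = 1.09e-16). The TAZ siRNA effect was called higher in the APC background for 9 of the 10 and lower for none, where 12.2% of all genes were called higher, and the list median of this difference was 0.49, against -0.02 over all genes.

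Group means spanned at least 1 log2 unit for NRG1 and EREG only. The 3 genes with the highest Pearson correlation of log2 signal over the 20 arrays were DLG1 (0.969), DCLK1 (0.967) and LINC02381 (0.965) for NRG1, and ARMC8 (0.984), MCM4 (0.982) and LIN7C (0.980) for EREG. These arrays fall into 5 groups, so each correlation mainly reads the group means, and it is given as a description.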

How the data were processed

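RNA of 20 samples of one cell line was measured on Affymetrix arrays of biotinylated cRNA, 1 array per sample. The deposited values are log2 signals per probe set. The authors made them with RMA, which the submitters' processing notes name without a version; their range shows the log2 scale. Of 54675 probe sets, 41097 carried 1 gene symbol, 1801 several and 11777 none in the platform annotation, and 41043 matched a current RefSeq name. The 62 control probe sets were left out. For each of 19775 genes the probe set of highest average signal was tested, with no filter on low signals, and all 54613 probe sets were tested in a second fit.

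All 20 arrays entered 1 model of group means, fitted with limma 3.58.1 in R 4.3.3 (15 residual degrees of freedom, prior 3.39), with two-sided empirical Bayes tests and Benjamini-Hochberg adjustment. The median residual SD was 0.108. On simulated data for siAPC against siGFP, 50 of 19775 genes were changed at each size. The fit recovered 40% of log2 changes of 0.25, 90% of 0.5, and 100% of 1 and of 2, with 9 false calls among 174. In the measured data 40.0% of genes were called in this comparison, a far larger share than was changed here. These recovery values therefore do not carry over to it directly. No arrays were identical, and each correlated with the rest of its group at 0.99756 or more. Depth does not apply to arrays, and their number limits the precision.

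All measured members were named. At most 3 genes of a pathway list, those of lowest adjusted p, were named per comparison described, and likeness was given for members whose group means spanned at least 1. The members, lists and motifs were chosen with earlier results of these data known. The alternatives tried were all probe sets tested singly, the mean of a gene's probe sets, fits with the compared groups only, a replicate block, array centring, repeated quantile normalization, a minimum mean signal of 5, an intensity trend with a robust prior, and leaving out each array. The replicate letters were not taken as pairs.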

Additional observations from a re-analysis of the deposited data

Results flagged for a closer look

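The effect of added TAZ siRNA differed between the APC and beta-catenin backgrounds, by limma's interaction term, for 4 genes. The difference (APC minus beta-catenin background, log2) was -0.82 for EREG (adjusted p = 0.000802), -0.38 for HBEGF (adjusted p = 0.0031), -0.60 for NRG1 (adjusted p = 0.0045) and 0.44 for ERBB3 (adjusted p = 4.21e-06). With the mean of all probe sets of a gene, EREG (-0.395, adjusted p = 0.00493) and NRG1 (-0.36, adjusted p = 8.6e-05) were still called, and HBEGF (-0.15, adjusted p = 0.118) and ERBB3 (0.18, adjusted p = 0.103) were not. The EREG mean joins the leading probe set to 1569583_at, which alone gave 0.028 and was not called.

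In 2 of the 45 sets of 4 arrays examined, 1 array stood apart from the other 3. ERBB3 read 7.81 on siAPC replicate B, the highest of its group, and 7.66 on sibcat/siTAZ replicate A, also the highest of its group. Chance alone flags about 1 set in 20.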

How the results depend on the processing

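The alternatives were labelled over the 9 genes and 9 comparisons. Leaving out arrays entered as 2 values per gene and comparison, the lowest and the highest. Both took the label of the run that changed most, so 1 changed run counts as 2 values. Counted so, 736 values were labelled as keeping direction and side of the threshold. Another 30 were labelled as losing a call, 18 as gaining one and 17 as changing sign, and the cause was not tested. Taking the mean of all probe sets of a gene, which mixes bright and dim probe sets, changed most: 2 genes (EREG and NRG1) in place of 4 differed in the TAZ siRNA effect between backgrounds, and signs turned for TGFA (-0.015) and ERBB4 (-0.0362) in siAPC/siTAZ against siAPC, HBEGF (-0.0113) in sibcat/siTAZ against sibcat, EGFR (-0.0328) and ERBB3 (0.0015) in siAPC against sibcat, EGFR (-0.1281, adjusted p = 0.0052, called the other way) and ERBB4 (-0.0494) in siAPC/siTAZ against sibcat/siTAZ, and TGFA (-0.0533) and ERBB4 (-0.1144) in the difference between TAZ siRNA effects. EGFR in siAPC against siGFP lost its call there (0.076, adjusted p = 0.102). BTC in siAPC/siTAZ against sibcat/siTAZ was -0.025 after centring and -0.0231 after repeated quantile normalization, and -0.0275 to 0.04 with 1 array left out; ERBB4 ranged over -0.0283 to 0.0792 in sibcat/siTAZ against sibcat and -0.0275 to 0.1092 in siAPC against sibcat.

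NRG1 in siAPC/siTAZ against siGFP lost its call after repeated quantile normalization (adjusted p = 0.0515) and without siGFP replicate A, C or D or siAPC/siTAZ replicate B, C or D. Residuals of same-lettered replicates correlated at a median of 0.027 (lowest -0.088, highest 0.156), against -0.0089 for other letters, and not every pair was above 0.1, so the letters were not used as pairs; with the replicate block, 8 genes were called in siAPC against siGFP and 5 in the difference between TAZ siRNA effects, and NRG1 in siAPC/siTAZ against siGFP missed the threshold (adjusted p = 0.0511). The minimum signal of 5 leaves out ERBB4, which has no value there.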
